A study of Mus musculus with 16 samples.

Results

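Aminoacyl-tRNA synthetases were examined in cardiac RNA of mice lacking Clpp, Fgf21 or both genes. The set was chosen by gene symbol and comprised 36 of the 36499 entries of the count table, with 20 cytosolic enzymes and 16 mitochondrial enzymes, whose symbols end in 2. Gars and Kars were counted as cytosolic although each also supplies mitochondria. CLPP forms the proteolytic core of a mitochondrial matrix protease. FGF21 is a hormone that stressed tissues can secrete. The 4 genotypes, with 4 libraries each, were wild type, Fgf21 knockout (KO), Clpp KO and the double KO of both genes.

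All mice were fed normal chow. The Clpp knockout was whole-body and came from floxed Clpp mice crossed to a line with Cre recombinase under the β-actin promoter, whose heterozygous offspring were intercrossed. Double knockouts came from mice with both genes floxed and the same Cre, and no separate cross is described for the Fgf21 KO mice in the sources used here. Age and sex are not given there either. The labels number the libraries of a group without saying that each came from its own animal. The p-values therefore reflect variation among libraries, part of which may be technical.

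Aminoacyl-tRNA synthetases join each amino acid to its tRNA, the step that supplies ribosomes. Cytosol and mitochondria translate with separate sets of enzymes, both encoded in the nucleus. Amino acid shortage and mitochondrial stress can activate the integrated stress response, in which phosphorylation of eIF2α favours translation of ATF4. ATF4 and its partners bind C/EBP-ATF response elements, and genes for amino acid synthesis, amino acid transport and cytosolic tRNA charging are known targets.

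Because that element is a known feature of cytosolic synthetase genes, promoter windows of RefSeq (GRCm38.p6, from 250 bases before to 50 bases after the start) were searched for its core, TGATGNAA, on either strand. Windows were found for 27 of the 36 members. The core was present in 5 of 13 cytosolic genes with a window (38.5%) and in 0 of 14 mitochondrial genes with a window. Counted by window, since a gene such as Aars2 can have 2, it was present in 1304 of all 32851 (3.97%). For each gene the 30 bases around the match nearest to the start are shown on the strand of the gene, with the core in capitals. TTNCATCA is the same core read on the opposite strand, and the coordinates are those of the printed bases.
Aars, chr8:111033840-111033869, plus strand: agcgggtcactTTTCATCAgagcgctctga
Gars, chr6:55037960-55037989, plus strand: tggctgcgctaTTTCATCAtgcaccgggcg
Iars, chr13:49682126-49682155, plus strand: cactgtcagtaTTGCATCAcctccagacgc
Tars, chr15:11399655-11399684, minus strand: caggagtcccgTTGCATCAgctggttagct
Yars, chr4:129189895-129189924, plus strand: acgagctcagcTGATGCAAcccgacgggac
Relative to the RefSeq start, this match began at +10 in Aars, -30 in Gars, +8 in Iars, -15 in Tars and +4 in Yars. A match describes letters and not a bound site. Of the 5 cytosolic genes with the core, 4 (Aars, Gars, Iars and Yars) were among the 10 members that rose in Clpp KO (below). Of the 8 cytosolic genes whose window lacked it, 3 rose as well (Eprs, Mars and Sars). Cars, Lars and Nars also rose, and their windows were not analysed here. In the whole cytosolic class 10 of 20 members rose, against 1.08% of all genes tested. Whether genes with the core rose more often than genes without it was not tested.

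Library totals ran from 36260545 to 51820727 counts. Clpp counts were 1728 to 2108 in wild type and 1435 to 2636 in Fgf21 KO, while Clpp KO held 308 to 355 and double KO 267 to 293. Fgf21 was near the detection limit, with 0 counts in the 8 Fgf21-deficient libraries, 0 to 5 in wild type and 6 to 28 in Clpp KO, so its absence says little against wild type. All 7 ventricular cardiomyocyte markers were detected in every library, with a summed level of 24455.1 CPM in wild-type replicate 2 and 35310.6 to 54858.7 in the others. Wild-type replicates 2 and 4 were rich in atrial transcripts, with the highest summed level of 8 atrial markers reaching 10291.7 CPM (counts scaled to a common library total) in wild type against at most 3567.9 in any other group. Within wild type, the same 2 libraries were high in markers of other cells. Smooth muscle markers summed to 568.6 and 995.1 CPM there, against 151.7 and 154.8 in wild-type replicates 3 and 1. For macrophages the sums were 237.8 and 199.9 (116.1 and 118.5), and for fibroblasts 812.7 and 542.9 (415.7 and 406.6). Clpp KO replicate 2 had 213.6 for macrophages and 633.3 for fibroblasts, both above wild-type replicate 4. The smooth muscle sum was at most 288.3 in the other genotypes. The part of these cells in the results was not tested, except for the fits without these libraries and with the atrial level as a covariate. Genes of mitochondrial DNA took 25.6% to 39.4% of counts in wild type and 29.1% to 38.8% in Fgf21 KO, but 56.6% to 60.0% in Clpp KO and 56.1% to 60.8% in double KO. Levels below are in CPM with library totals adjusted by TMM, the trimmed mean of M-values, which sets most genes level between libraries, and fold changes are relative to that level.

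Loss of Clpp was accompanied by higher RNA for 10 of the 20 cytosolic synthetases and for none of the 16 mitochondrial ones. The genes that rose were Iars, Gars, Nars, Sars, Mars, Cars, Eprs, Yars, Aars and Lars, by 1.49-fold to 1.93-fold. Among all genes tested, 1.08% passed as higher and 1.63% in either direction (edgeR quasi-likelihood test, two-sided, Benjamini-Hochberg adjusted over 15255 genes, threshold 0.05). At an unadjusted p under 0.05 stood 13 cytosolic members and 1 mitochondrial member, against 21.3% of all genes. Among these only Farsa was lower, with a log2 fold change of -0.20 (95% interval -0.38 to -0.02). The median log2 fold change was 0.54 for cytosolic members, 0.11 for mitochondrial members and -0.04 for all genes tested. All 36 members passed the filter on low counts, and the lowest count of any member in any library was 87.

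**Figure D1:**
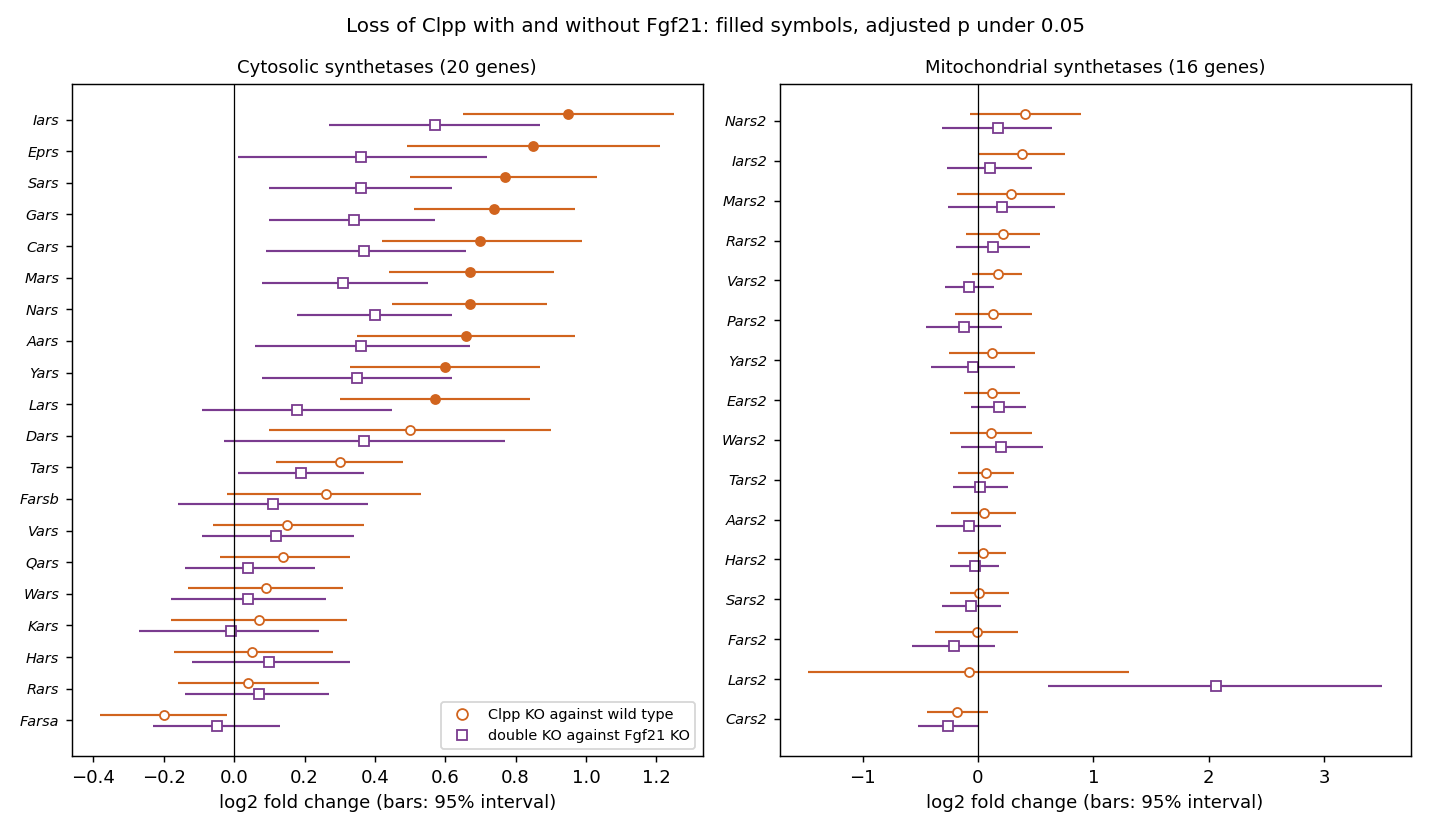
Log2 fold change (x axis) of the 36 synthetases (y axis), with bars for 95% intervals, in Clpp KO against wild type (circles) and double KO against Fgf21 KO (squares); filled symbols have an adjusted p under 0.05. The 10 filled circles all belong to cytosolic genes, from 0.57 for Lars to 0.95 for Iars, and no mitochondrial symbol is filled.

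Iars, which charges isoleucine, stood at 38.4, 25.3, 40.7 and 29.4 CPM in wild type and at 70.2, 60.3, 66.5 and 61.0 CPM in Clpp KO (replicates 1 to 4 in each case). Every Clpp KO library was above every wild-type library. Its log2 fold change was 0.95 ± 0.14 (SE, adjusted p = 0.00166). Part of the Iars signal is uncertain, since 14.7% of its 31-base words also occur in other genes, nearly all in a pseudogene.

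Gars, which charges glycine in both compartments, had levels of 42.0, 32.8, 42.7 and 47.8 CPM in wild type and 69.6, 69.4, 65.8 and 71.2 CPM in Clpp KO. The groups did not overlap, and the 4 Clpp KO libraries lay close together. The log2 fold change of Gars was 0.74 ± 0.11 (SE, adjusted p = 0.00168). Kars, the other enzyme used in both compartments, charges lysine and stood at 70.1, 51.2, 67.5 and 72.5 CPM in wild type and 68.3, 62.6, 68.7 and 74.8 CPM in Clpp KO. The Kars groups overlapped, and its log2 fold change was 0.07 (95% interval -0.18 to 0.32, adjusted p = 0.745).

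Nars, the asparagine enzyme, stood at 47.3, 33.3, 44.9 and 44.4 CPM in wild type and 70.7, 69.4, 66.6 and 63.0 CPM in Clpp KO. The serine enzyme Sars was at 43.1, 33.1, 39.7 and 46.8 CPM against 71.7, 65.0, 66.7 and 73.2 CPM. For Mars, the methionine enzyme, the levels were 28.9, 20.5, 27.9 and 28.5 CPM against 44.4, 40.1, 42.7 and 41.3 CPM. In each of these 3 genes all Clpp KO libraries exceeded all wild-type libraries, and wild-type replicate 2 was the lowest library. Log2 fold changes were 0.67 ± 0.10 for Nars (SE, adjusted p = 0.00243), 0.77 ± 0.12 for Sars (0.00324) and 0.67 ± 0.11 for Mars (0.00422). Together with Iars and Gars, they passed the test whichever of the 8 libraries was left out.

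The cysteine enzyme Cars stood at 12.8, 12, 13.4 and 14.5 CPM in wild type and 20.5, 19.7, 23.4 and 22.1 CPM in Clpp KO. Eprs, a fused enzyme for glutamate and proline, was at 50.1, 29.6, 50.4 and 48.4 CPM against 89.7, 74.0, 77.5 and 80.4 CPM. Neither gene's groups overlapped, and wild-type replicate 2 stood well below the other wild-type libraries for Eprs. Log2 fold changes were 0.70 ± 0.13 for Cars (SE, adjusted p = 0.0125) and 0.85 ± 0.17 for Eprs (0.0164). Each was called in 7 of the 8 fits that left out a library. The exceptions were the fit without Clpp KO replicate 3 for Cars and that without Clpp KO replicate 1 for Eprs.

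The tyrosine enzyme Yars stood at 18.3, 15.3, 17.4 and 22.6 CPM in wild type and 29.4, 27.4, 28.2 and 26.3 CPM in Clpp KO. Aars, for alanine, was at 41.9, 27.0, 40.7 and 46.2 CPM against 65.0, 60.7, 61.4 and 59.1 CPM. Lars, for leucine, was at 27.4, 17.8, 27.6 and 27.6 CPM against 38.9, 36.1, 37.1 and 37.2 CPM. The groups did not overlap for any of the 3 genes. Log2 fold changes were 0.60 ± 0.13 for Yars (SE, adjusted p = 0.0253), 0.66 ± 0.15 for Aars (0.0291) and 0.57 ± 0.13 for Lars (0.0308). These 3 calls were the least stable, since leaving out any single Clpp KO library ended each of them and leaving out wild-type replicate 2 ended that of Yars. For Aars, 14.3% of exon bases overlap Exosc6 on the same strand.

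**Figure D2:**
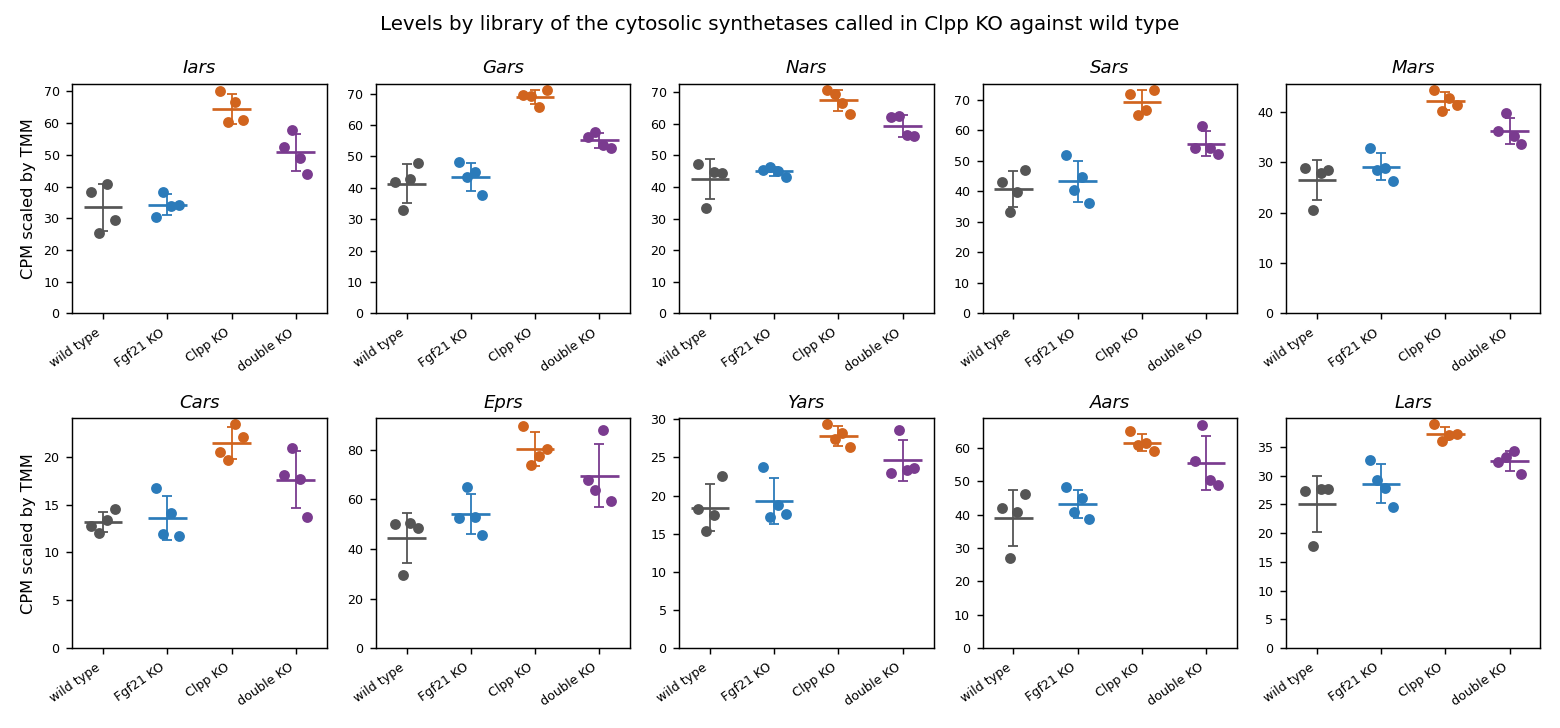
Level in CPM scaled by TMM (y axis) of the 10 cytosolic synthetases that rose in Clpp KO, 1 panel per gene, by genotype (x axis); points are libraries, lines are means and bars are SD over 4 libraries. In every panel the Clpp KO points lie above all wild-type points, and the double KO mean lies between the Clpp KO mean and the wild-type mean. The genes were chosen by their call in Clpp KO against wild type, which by itself favours both patterns. None of them passed the test in double KO against Clpp KO.

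Without the atrial-rich wild-type replicates 2 and 4, which leaves fewer libraries, 7 of the 10 calls remained. Cars, Eprs and Lars then had log2 fold changes of 0.71, 0.68 and 0.44, with adjusted p of 0.0668, 0.0545 and 0.0652 (edgeR, Benjamini-Hochberg). The cytosolic median was then 0.39 and the mitochondrial median -0.04. With the atrial level as a covariate all 10 calls remained, joined by 1 more cytosolic member and by mitochondrial Iars2. With the genes of mitochondrial DNA removed before scaling, all 10 remained. When library totals alone set the scale, none of the 10 remained, because the median of all genes then moved to -0.79 while the cytosolic median was -0.17 and the mitochondrial median -0.61.

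Groups did not overlap in the higher direction for 13 of the 20 cytosolic members and 0 of the 16 mitochondrial members, against 7.75% of all genes. Besides the 10 called genes these were Tars (threonine), Dars (aspartate) and Vars (valine), which did not pass the test. Tars stood at 17.3, 16.7, 17.4 and 19.6 CPM in wild type and at 22.4, 21.5, 21.8 and 21.9 CPM in Clpp KO (log2 fold change 0.30 ± 0.09, SE, edgeR adjusted p = 0.0825). The remaining 7 cytosolic members, Farsa, Farsb, Hars, Kars, Qars, Rars and Wars, had log2 fold changes from -0.20 for Farsa to 0.26 for Farsb. Wars, the tryptophan enzyme, is an example, with 0.09 (95% interval -0.13 to 0.31). Farsa and Farsb encode the 2 subunits of the phenylalanine enzyme.

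Among the mitochondrial enzymes, log2 fold changes ran from -0.18 for Cars2 to 0.41 for Nars2, and 13 of 16 were positive. Iars2, the isoleucine enzyme, stood at 64.9, 31.3, 68.0 and 44.0 CPM in wild type and 71.2, 63.8, 67.7 and 68.4 CPM in Clpp KO. Nars2, for asparagine, was at 8.56, 3.08, 8.34 and 5.18 CPM against 9.49, 7.88, 8.38 and 7.64 CPM. Cars2, for cysteine, was at 23.4, 19.0, 22.6 and 21.7 CPM against 19.9, 17.9, 19.5 and 19.5 CPM. For Iars2, 22.9% of exon bases overlap Rab3gap2 on the opposite strand, so part of its counts is uncertain. For Iars2 and Nars2 the 2 atrial-rich wild-type libraries were the low ones, while the other 2 lay within the range of Clpp KO. Log2 fold changes were 0.38 (95% interval 0.01 to 0.75) for Iars2, 0.41 (-0.07 to 0.89) for Nars2 and -0.18 (-0.44 to 0.09) for Cars2. Their adjusted p values were 0.224, 0.299 and 0.406 (edgeR, Benjamini-Hochberg).

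For 13 amino acids each compartment has 1 gene of its own here, and these pairs are set side by side without a test of the difference. The cytosolic gene had the larger log2 fold change in Clpp KO against wild type in 10 pairs and the mitochondrial gene in 3. Wide pairs were Cars at 0.70 and Cars2 at -0.18, Sars at 0.77 and Sars2 at 0.01, Lars at 0.57 and Lars2 at -0.08, Aars at 0.66 and Aars2 at 0.05, and Iars at 0.95 and Iars2 at 0.38. Mars at 0.67 and Mars2 at 0.29, Yars at 0.60 and Yars2 at 0.12, Nars at 0.67 and Nars2 at 0.41, and Tars at 0.30 and Tars2 at 0.07 were closer. The other pairs were nearly level, with Hars at 0.05 and Hars2 at 0.04, and with the mitochondrial gene slightly higher for Rars at 0.04 and Rars2 at 0.22, Vars at 0.15 and Vars2 at 0.17, and Wars at 0.09 and Wars2 at 0.11. In bulk tissue, fewer cells of a type and less RNA per cell cannot be told apart.

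**Figure D3:**
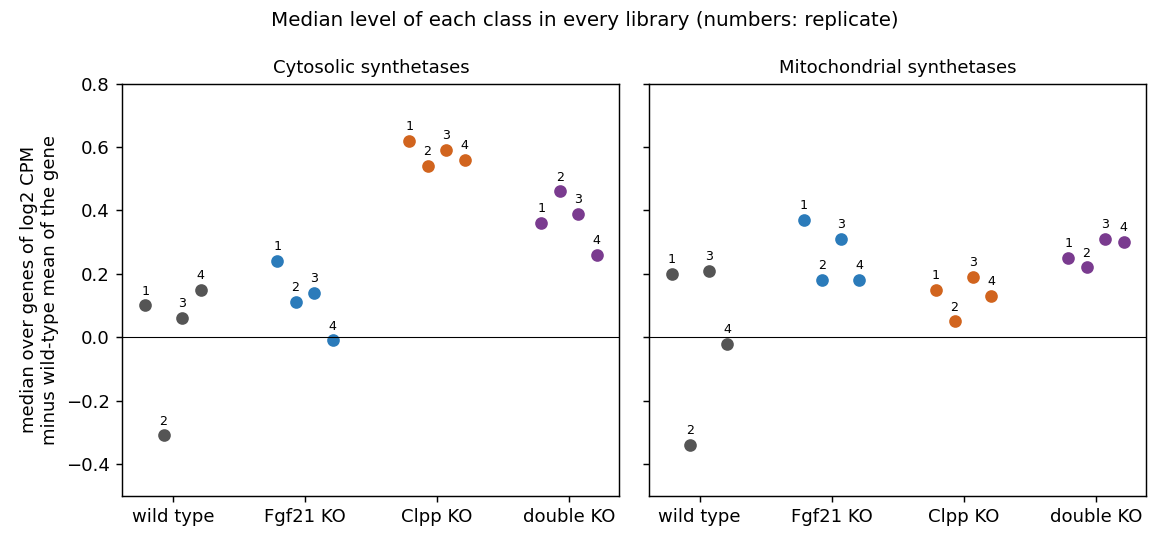
Median over the members of each class of log2 CPM (scaled by TMM) minus the wild-type mean of the member (y axis), for each of the 16 libraries by genotype (x axis), with replicate numbers beside the points. Cytosolic medians are 0.54 to 0.62 in Clpp KO and at most 0.15 in wild type, while mitochondrial medians of Clpp KO (0.05 to 0.19) lie inside the wild-type range (-0.34 to 0.21).

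Library by library, the cytosolic class median relative to wild type was 0.10, -0.31, 0.06 and 0.15 in wild type, 0.24, 0.11, 0.14 and -0.01 in Fgf21 KO, 0.62, 0.54, 0.59 and 0.56 in Clpp KO, and 0.36, 0.46, 0.39 and 0.26 in double KO. Clpp KO libraries were the highest and did not overlap any other genotype. The difference between cytosolic and mitochondrial medians within a library, which does not depend on the scaling of that library, ran from 0.40 to 0.50 in Clpp KO, from -0.03 to 0.24 in double KO, from -0.19 to -0.07 in Fgf21 KO and from -0.15 to 0.16 in wild type. On this measure too the Clpp KO libraries stood above all others, and double KO overlapped wild type but not Fgf21 KO.

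Within the cytosolic class, called members were found in each physical and structural grouping. Of 8 subunits of the multi-synthetase complex, an assembly of cytosolic synthetases, 4 were called, Eprs, Iars, Lars and Mars, with a median of 0.54. Of 12 enzymes outside it 6 were called, with a median of 0.45. Synthetases have catalytic domains of either of 2 unrelated folds, and 5 of 9 cytosolic enzymes with the class I fold and 4 of 10 with the class II fold were called, with Eprs left out because it carries both. Without Gars and Kars, 9 of 18 cytosolic enzymes were called and the median stayed at 0.54.

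Double KO against Fgf21 KO addresses the loss of Clpp in mice without Fgf21, and shares no library with Clpp KO against wild type. No synthetase passed the test, where 0.892% of all genes did in either direction and 0.826% as higher. At an unadjusted p under 0.05 stood 10 cytosolic members and 1 mitochondrial member, against 7.09% of all genes. DESeq2 called 2 members (Iars and Nars) and limma voom called 7. The median log2 fold change was 0.25 for cytosolic members, 0.00 for mitochondrial members and -0.01 for all genes.

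Iars stood at 30.4, 38.4, 34.0 and 34.2 CPM in Fgf21 KO and 52.4, 57.8, 49.1 and 43.9 CPM in double KO. Nars was at 45.4, 46.4, 45.2 and 43.1 CPM against 62.0, 62.6, 56.4 and 56.2 CPM. Gars was at 48.3, 43.4, 44.9 and 37.7 CPM against 56.2, 57.9, 53.6 and 52.7 CPM. For all 3 genes every double KO library was above every Fgf21 KO library. Log2 fold changes were 0.57 (95% interval 0.27 to 0.87) for Iars, 0.40 (0.18 to 0.62) for Nars and 0.34 (0.10 to 0.57) for Gars, with adjusted p of 0.0879, 0.121 and 0.352 (edgeR, Benjamini-Hochberg). Sars, Mars, Aars and Dars were the other cytosolic genes without overlap, which made 7 of 20, and Mars2 was the only mitochondrial one, against 3.88% of all genes.

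Sars stood at 51.7, 40.5, 44.6 and 36.1 CPM in Fgf21 KO and 54.3, 61.5, 54.3 and 52.2 CPM in double KO. Mars was at 32.9, 28.5, 28.9 and 26.3 CPM against 36.2, 39.7, 35.3 and 33.7 CPM. Both were separated narrowly, with Fgf21 KO replicate 1 close to the lowest double KO library. Cars was at 16.7, 11.9, 14.1 and 11.7 CPM against 18.1, 20.9, 17.7 and 13.7 CPM, and Yars at 23.7, 17.2, 18.8 and 17.6 CPM against 23.0, 28.6, 23.3 and 23.6 CPM. The groups of these last 2 genes overlapped. Log2 fold changes of the 4 genes lay between 0.31 for Mars and 0.37 for Cars.

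Aars stood at 48.2, 40.8, 44.9 and 38.6 CPM in Fgf21 KO and 56.0, 66.8, 50.2 and 49.0 CPM in double KO. Eprs was at 52.7, 65.1, 52.8 and 45.8 CPM against 67.7, 63.7, 87.9 and 59.3 CPM, and Lars at 32.8, 29.3, 27.8 and 24.6 CPM against 32.3, 33.3, 34.3 and 30.2 CPM. The groups of Aars did not overlap, while those of Eprs and Lars did. Kars, which had not differed beyond its spread in Clpp KO, was at 79.2, 72.9, 72.6 and 59.6 CPM in Fgf21 KO and 64.8, 69.3, 76.1 and 71.4 CPM in double KO, again with overlap.

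Of the mitochondrial enzymes followed library by library, Iars2 stood at 63.4, 70.3, 65.9 and 60.7 CPM in Fgf21 KO and 68.0, 68.8, 70.0 and 72.2 CPM in double KO. Nars2 was at 7.15, 7.94, 8.35 and 6.87 CPM against 8.11, 9.30, 7.76 and 8.82 CPM. Cars2 was at 30.9, 20.9, 27.0 and 22.9 CPM against 21.5, 22.4, 17.5 and 23.5 CPM. All 3 overlapped, and Cars2 had the lowest fold change of the class in this comparison (log2 -0.26, 95% interval -0.52 to 0.00, edgeR adjusted p = 0.708).

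The 8 members with the smallest p in this comparison and in Clpp KO against wild type had 7 in common: Cars, Gars, Iars, Mars, Nars, Sars and Yars. Across the 20 cytosolic genes the log2 fold changes of both comparisons had a Pearson r of 0.94 and a Spearman rho of 0.84. Across the 16 mitochondrial genes r was -0.14 and rho 0.34, and without Lars2 they were 0.73 and 0.57. These values are across genes, which are not independent replicates and share their libraries.

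Double KO against Clpp KO addresses the loss of Fgf21 in mice without Clpp. No synthetase passed the test (0.059% of all genes did), and 3 cytosolic members and 1 mitochondrial member had an unadjusted p under 0.05, against 3.55% of all genes. The cytosolic median was -0.13, the mitochondrial median 0.13 and that of all genes 0.01. For 6 cytosolic genes every double KO library was below every Clpp KO library, against 2.67% of all genes. They were Iars, Gars, Sars, Mars, Nars and Lars, with log2 fold changes of -0.34, -0.32, -0.32, -0.22, -0.19 and -0.20. The 95% intervals were -0.64 to -0.05 for Iars and -0.56 to -0.09 for Gars, and the adjusted p of both was 0.994 (edgeR, Benjamini-Hochberg).

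Against wild type, double KO had higher Nars (log2 fold change 0.48 ± 0.10, SE, adjusted p = 0.0272) and Iars (0.60 ± 0.14, adjusted p = 0.0422), where edgeR called 1.05% of all genes higher and 1.53% in either direction. No mitochondrial member was called by edgeR, while DESeq2 and limma voom each called Lars2. The medians were 0.39 for cytosolic members, 0.23 for mitochondrial members and -0.01 for all genes. Groups did not overlap in the higher direction for 10 cytosolic genes and for mitochondrial Lars2 and Ears2, against 5.36% of all genes. Both calls were lost without wild-type replicates 2 and 4, where Iars had a log2 fold change of 0.36 and an adjusted p of 0.224 and Nars 0.36 and 0.066. Both were lost, with log2 fold changes of 0.46 to 0.61, without the filter on low counts, with the atrial covariate and with the replicate number as a block, where adjusted p was 0.0553 to 0.0739. Both were also lost without double KO replicate 1 or 2. The call of Iars alone was lost without wild-type replicate 2 or 4 or double KO replicate 3, and that of Nars was kept in those fits. Without double KO replicate 4 it was the call of Nars that was lost, and that of Iars was kept.

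The interaction compares the effect of Fgf21 loss without CLPP with its effect in mice with CLPP. It called 0.0% of genes (0 of 15255, with 1.96% at an unadjusted p under 0.05), and limma voom and DESeq2 called no synthetase either. Of the cytosolic members 17 of 20 were negative, with a median of -0.20, beside -0.09 for mitochondrial members and 0.02 for all genes. Unadjusted p was under 0.05 for 4 cytosolic members and 1 mitochondrial member. For Gars the interaction was -0.40 (95% interval -0.73 to -0.07) and for Iars -0.38 (-0.80 to 0.04), both with an adjusted p of 1.0 (edgeR, Benjamini-Hochberg).

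Loss of Fgf21 alone was not followed by a call for any synthetase by edgeR, DESeq2 or limma voom (edgeR called 0.0459% of all genes). At an unadjusted p under 0.05 stood 2 mitochondrial genes, Vars2 and Fars2, and no cytosolic gene, against 9.17% of all genes. Mitochondrial members were all positive, with a median log2 fold change of 0.25 against 0.09 for cytosolic members and -0.01 for all genes. Library by library, the mitochondrial class median relative to wild type was 0.20, -0.34, 0.21 and -0.02 in wild type. In Fgf21 KO it was 0.37, 0.18, 0.31 and 0.18, so the atrial-rich wild-type replicates 2 and 4 were the low ones. Vars2, the mitochondrial valine enzyme, stood at 19.5, 15.1, 19.7 and 14.6 CPM in wild type and 21.9, 21.2, 21 and 20.0 CPM in Fgf21 KO. Its groups did not overlap, as for 1.15% of all genes, but the wild-type values fell in 2 levels, with the atrial-rich replicates 2 and 4 low. The log2 fold change of Vars2 was 0.29 (95% interval 0.07 to 0.50, adjusted p = 0.538).

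Lars2, the mitochondrial leucine enzyme, varied far more between libraries than any other member. Its levels were 251.6, 199.2, 191.8 and 270.4 CPM in wild type, 910.5, 196.1, 311.2 and 206.5 CPM in Fgf21 KO, 159.1, 181.7, 311.7 and 209.7 CPM in Clpp KO, and 365.9, 2845.5, 3143.1 and 413.1 CPM in double KO. Double KO replicates 2 and 3 were the highest libraries, Fgf21 KO replicate 1 came next, and the other 13 libraries lay between 159.1 and 413.1 CPM. Double KO did not overlap wild type or, as for 3.11% of all genes in the higher direction, Clpp KO, but it overlapped Fgf21 KO.

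The fitted log2 fold changes of Lars2 in double KO were 2.89 ± 0.70 against wild type (SE, adjusted p = 0.0566), 2.97 ± 0.70 against Clpp KO (0.457) and 2.06 ± 0.67 against Fgf21 KO (0.376), and none passed the edgeR test with Benjamini-Hochberg adjustment. DESeq2 called it against Clpp KO (adjusted p = 0.00447) and against wild type (2.89, adjusted p = 0.00092), and limma voom against wild type (2.07, adjusted p = 0.0304). Against wild type edgeR called it when double KO replicate 1 or 4, the 2 lower ones, was left out (adjusted p = 0.0266 and 0.0284). Against Fgf21 KO its log2 fold change was 2.83 without Fgf21 KO replicate 1 and 1.57 without double KO replicate 3. None of the 31-base words of Lars2 occurred in the mitochondrial ribosomal RNA gene mt-Rnr2, and 0.923% occurred in other genes. Whether reads of another origin reached this gene was not tested.

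**Figure D4:**
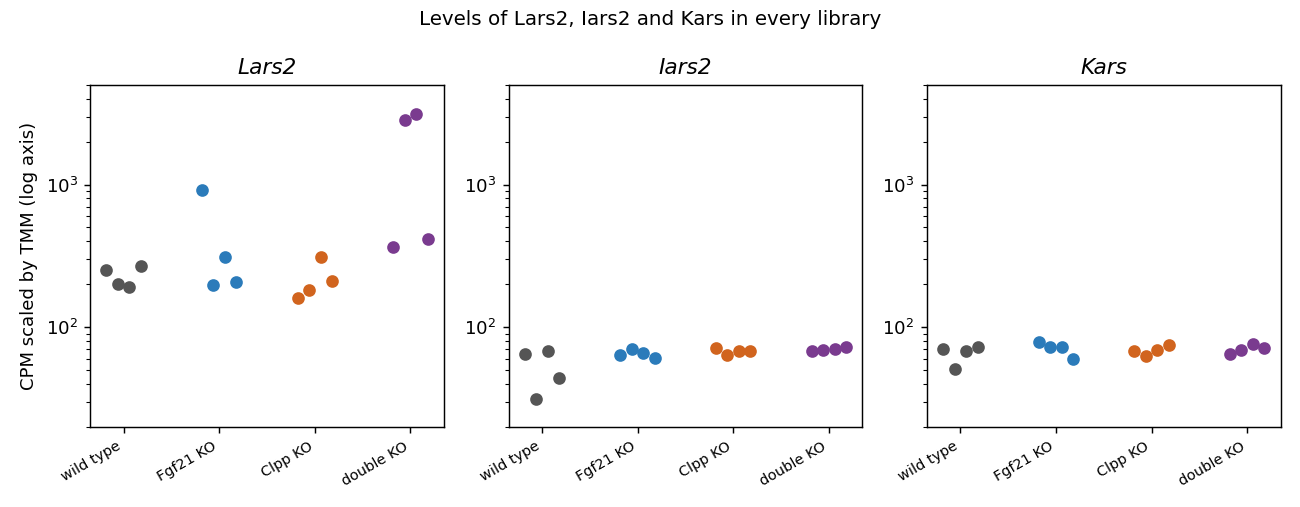
Level in CPM scaled by TMM (y axis, log scale) of Lars2, Iars2 and Kars in each library by genotype (x axis). Double KO replicates 2 and 3 reach 2845.5 and 3143.1 CPM for Lars2 and 1 Fgf21 KO library 910.5 CPM, while Kars stays between 51.2 and 79.2 CPM.

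Levels between genes were compared per kilobase of exon (RPKM on the TMM scale). The length was the union of all annotated exons of a gene, which can be longer than any single transcript, so the order is approximate. With 18102 such bases Eprs stood at 2.46 RPKM in wild type, though its mean of 44.6 CPM exceeded that of Gars (41.3 CPM). In wild type the cytosolic enzymes had a median of 6.34 RPKM, with a range from 2.0 for Cars to 14.6 for Kars. Mitochondrial enzymes had a median of 3.21 RPKM and ran from 0.567 for Mars2 to 20.6 for Lars2. After Lars2 and Kars the order was Gars at 13.2, Nars at 9.75, Farsb at 9.22 and Hars at 8.96 RPKM. Over all libraries the ranges of Nars (7.65 to 16.2), Farsb (6.77 to 12.2) and Hars (7.38 to 11.1) overlapped, so the order of these neighbours was not fixed. At the lower end, Pars2, Nars2, Wars2 and Mars2 were the only members below 1 RPKM in wild type, at 0.93, 0.903, 0.603 and 0.567. The cytosolic median was 7.38 RPKM in Clpp KO and the mitochondrial median 3.6.

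Other genes of the same pathways were counted from lists chosen with earlier results of these data known. Of 23 factors and targets of the integrated stress response, 9 rose in Clpp KO against wild type and 0 fell, where 1.08% of all genes rose. The median log2 fold change was 0.61, and 5 of the 23 were negative, down to -0.94. Examples of those that rose are Mthfd2, a mitochondrial folate enzyme, at 2.98 ± 1.62 CPM in wild type and 42.4 ± 4.96 CPM in Clpp KO, and Asns, asparagine synthetase, at 2.36 ± 1.19 and 20.2 ± 2.25 CPM (SD, n = 4 each). Their log2 fold changes were 3.84 ± 0.42 and 3.10 ± 0.32 (SE), and those of Atf5, a transcription factor, and Eif2ak2, an eIF2α kinase, were 2.07 ± 0.23 and 1.02 ± 0.13. In double KO against Fgf21 KO 7 of the 23 rose, where 0.826% of all genes did. They included Mthfd2 at 3.31 ± 0.42 and Asns at 2.34 ± 0.32. Against Clpp KO, double KO had a list median of -0.48 with no gene called. At an unadjusted p under 0.05 stood 10 of the 23, against 3.55% of all genes. For 8 of the 23 every double KO library was below every Clpp KO library, against 2.67% of all genes. A positive fold change was found for 4 of the 23. Asns stood at 7.52 ± 2.73 CPM in double KO and had a log2 fold change of -1.42 (edgeR adjusted p = 0.234).

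Among 13 partners of tRNA charging, 20 cytosolic translation factors and 11 tested mitochondrial translation factors, edgeR called no gene in any of the 6 comparisons. With 1.63% of all genes called in Clpp KO against wild type and smaller shares in the other comparisons, a count of 0 in lists of this size is near the background. Median log2 fold changes in Clpp KO against wild type were 0.10, 0.14 and 0.14. The smallest p among the cytosolic factors belonged to Eif2s2, the β subunit of eIF2, at 46.9 ± 9.66 CPM in wild type and 66.8 ± 2.97 CPM in Clpp KO (SD, n = 4 each; log2 fold change 0.51 ± 0.13, SE, edgeR adjusted p = 0.0619). Tarsl2, a second threonine enzyme of the cytosol, and Gfm2, a mitochondrial ribosome recycling factor, led the other lists with 0.45 (adjusted p = 0.275) and 0.38 (0.27).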

How the data were processed

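RNA from mouse cardiac tissue was sequenced from stranded mRNA libraries, per the labels' protocols. The authors deposited whole-number counts per gene for 16 libraries. Per the submitters' processing notes, the tools were fastp 0.21.0, kallisto 0.46.1, DESeq2 1.30.1, edgeR 3.32.1 and R 4.0.3, with the build GRCm38.p6. kallisto shares a read between matching transcripts, so near-identical copies are uncertain, and how its estimates were made whole is not stated in the sources used here. No source states whether strand was used in counting, so counts from the stretches where genes overlap are uncertain.

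The deposited counts went into the test without change, after filterByExpr of edgeR 4.0.16 (count minimum 10, total minimum 15) had left 15255 genes. TMM scaling and 1 robust quasi-likelihood model over all 16 libraries (12 residual degrees of freedom, common biological coefficient of variation 0.249) gave 6 two-sided comparisons, adjusted by Benjamini-Hochberg over all genes (threshold 0.05). Called means past that threshold. Intervals at 95% use the t distribution of the fit. DESeq2 1.42.0 and limma 3.58.1 (voom with quality weights) were alternatives, run in R 4.3.3. The edgeR steps were also run on simulated counts, drawn with the spread fitted to these libraries. The simulation did not model the differences in atrial or mitochondrial DNA transcripts, so it cannot show how these affect the calls.

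Gene positions, exon lengths and overlaps came from GENCODE M21 (GRCm38), and promoter windows from RefSeq. Protein sequences were not analysed here. The members and lists were chosen with earlier results of these data known. Any member could be named, and levels in every library are given for the 8 members with the smallest p in Clpp KO against wild type and in double KO against Fgf21 KO, the 4 mitochondrial members with the smallest p in either, Gars, Kars and members called elsewhere. Each list could give up to 4 called genes by p, or its first 2 by p if it had no call. Clpp is given by its range. Levels of Tars and Vars2 were added after their values were seen.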

Additional observations from a re-analysis of the deposited data

Results flagged for a closer look

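In each genotype, a library was set apart when its gap to the nearest of the other 3 was above Dixon's 95% critical value of 0.829 of the group's range. Chance flags about 1 in 20 groups, and 9 of 152 groups examined were flagged (the 36 members and both class medians in 4 genotypes). Of these, 6 concerned wild-type replicate 2 as the lowest library, which was also rich in atrial transcripts. It had 16.7 CPM for Fars2 (others 30.5 to 33.9), 17.8 for Lars (27.4 to 27.6), 29.6 for Eprs (48.4 to 50.4), 6.19 for Ears2 (7.95 to 8.13), 20.5 for Mars (27.9 to 28.9) and 6.82 for Sars2 (7.73 to 7.79). Lars, Eprs and Mars were called higher in Clpp KO, and without this library all 3 were still called.

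Dars was lowest in Clpp KO replicate 2, at 37.9 CPM against 39.4 to 39.5 in the others. Pars2, the mitochondrial proline enzyme, was lowest in double KO replicate 3, at 2.7 CPM against 3.25 to 3.27. Yars was highest in double KO replicate 2, at 28.6 CPM against 23.0 to 23.6.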

How the results depend on the processing

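In Clpp KO against wild type, 10 cytosolic calls became 11 with DESeq2, 11 higher and 1 lower with limma voom (with 2 mitochondrial lower), 11 with the atrial covariate (with 1 mitochondrial higher), 7 without wild-type replicates 2 and 4, and 6 to 11 with 1 library left out, the lowest without Clpp KO replicate 1 or 3. Replicate numbers were not shown to pair the libraries. Same-numbered libraries of different groups had correlations of deviations from -0.228 to 0.364 (median -0.009), and 3 of 16 correlated best with their own number. Such correlations cannot exclude that same-numbered libraries were handled together. With the replicate block, 7 cytosolic members were called for Clpp KO and 0 for double KO, each against wild type. In double KO against Fgf21 KO, 0 cytosolic calls became 2 with DESeq2 and 7 with limma voom, and DESeq2 called 1 mitochondrial member in double KO against Clpp KO. For double KO against wild type, 2 cytosolic calls became 8 with DESeq2 and 11 with limma voom (each with 1 mitochondrial call), 5 with wild-type replicates 1 and 3 summed, and 0 without the filter, without wild-type replicates 2 and 4, or with the atrial covariate. With 1 library left out they ran from 0 to 6 cytosolic and from 0 to 1 mitochondrial. The summing was chosen after seeing the data, because those 2 libraries were the closest pair (Spearman 0.9972), though they differed by more than sampling noise. Over the whole table, 249 genes were called for Clpp KO against wild type, 114 to 949 with 1 library left out and 146 to 11933 under the other settings. For double KO against wild type these were 233, 129 to 1116 and 148 to 13124, against Fgf21 KO 136, 94 to 127 and 109 to 10858, and against Clpp KO 9, 6 to 10 and 6 to 41. For Fgf21 KO against wild type they were 7, 5 to 8 and 6 to 111. In Fgf21 KO against wild type and in the interaction, no setting gave a synthetase call.

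Library totals alone moved the median of all genes to -0.79 for Clpp KO (against wild type) and, for double KO, to -0.70 against Fgf21 KO and -0.92 against wild type. Directions against wild type or Fgf21 KO therefore hold only relative to the bulk of genes. With that scaling the first comparison called 0 cytosolic members higher, 9 cytosolic lower and 14 mitochondrial lower. The second called 16 cytosolic and 15 mitochondrial members lower. The third called 0 cytosolic higher, 17 cytosolic lower, 1 mitochondrial higher and 13 mitochondrial lower. No other setting turned the direction of a member that passed the test in either of the 2 fits. The reversed log2 fold changes in Clpp KO against wild type were -0.73 for Sars2, -0.71 for Hars2, -0.70 for Rars, -0.69 for Hars, -0.67 for Aars2, -0.66 for Kars, -0.65 for Tars2, -0.65 for Wars, -0.62 for Ears2, -0.60 for Pars2, -0.60 for Qars, -0.60 for Wars2, -0.59 for Vars, -0.58 for Yars2, -0.57 for Vars2, -0.48 for Rars2, -0.46 for Farsb, -0.45 for Tars, -0.39 for Mars2, -0.31 for Iars2, -0.14 for Lars, -0.14 for Yars, -0.06 for Aars, -0.06 for Mars, -0.06 for Nars and -0.05 for Cars. In double KO against Fgf21 KO they were -0.68 for Tars2, -0.65 for Qars, -0.65 for Wars, -0.62 for Rars, -0.59 for Hars, -0.59 for Iars2, -0.58 for Farsb, -0.58 for Vars, -0.56 for Rars2, -0.52 for Ears2, -0.52 for Nars2, -0.51 for Lars, -0.50 for Tars, -0.49 for Mars2, -0.49 for Wars2, -0.38 for Mars, -0.35 for Gars, -0.33 for Dars, -0.33 for Eprs, -0.32 for Sars and -0.29 for Nars. In double KO against wild type they were -0.83 for Rars, -0.81 for Hars2, -0.79 for Hars, -0.78 for Kars, -0.76 for Pars2, -0.75 for Aars2, -0.74 for Tars2, -0.72 for Sars2, -0.72 for Tars, -0.72 for Vars, -0.71 for Qars, -0.69 for Wars, -0.67 for Vars2, -0.66 for Farsb, -0.64 for Fars2, -0.62 for Wars2, -0.60 for Yars2, -0.58 for Ears2, -0.49 for Lars, -0.47 for Cars, -0.46 for Gars, -0.46 for Yars, -0.44 for Rars2, -0.43 for Sars, -0.42 for Iars2, -0.42 for Mars, -0.39 for Nars, -0.34 for Aars and -0.25 for Iars.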
